A study of Mus musculus with 36 samples.

Results

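The expression of 7 neuropeptide and signalling genes of the hypothalamic nuclei was followed in Dicer conditional knockout (cKO) mice: Vip, Vipr2, Avp, Oxt, Prok2, Rgs16 and Crh. The members were all probe sets of the array annotated to exactly 1 of these genes, which gave 11 of 45101 probe sets and 7 of the 18194 genes with such a probe set. The rule used no measured value, but the genes were proposed with earlier results of these arrays known. RNA from the hypothalamus, the cortex and tissue labelled as hippocampus was measured on 36 Affymetrix arrays, with 3 animals in each of 12 groups. The cKO mice had received tamoxifen and were killed 4 or 8 weeks later, and the controls had received vehicle and were killed at the same times. All were killed 3 to 4 h after light onset, so a change of level and a change of daily phase cannot be told apart. All animals carried the Camk2a-CreERT2 transgene and Dicer lox/lox alleles on a C57BL/6J background, and were 8 weeks old at injection. Tamoxifen was given as 2 injections of 1 mg a day for 5 days, 10 mg in all. Vehicle was a mixture of sunflower seed oil and ethanol, so tamoxifen itself and the excision of Dicer cannot be told apart between these groups. Cre is driven by the Camk2a promoter, so excision is limited to cells that use it, and other neurons and glia keep Dicer.

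Dicer cuts precursor microRNAs into their mature form, and neurons that lose it gradually lose microRNAs. Vip (vasoactive intestinal peptide) is made in the suprachiasmatic nucleus (SCN), the circadian pacemaker above the optic chiasm, and also in interneurons of the cortex. Its receptor Vipr2 keeps SCN neurons in step, Prok2 (prokineticin 2) is an output signal of the SCN, and Rgs16 shortens G protein signalling there. Avp (vasopressin) and Oxt (oxytocin) are made by the large neurons of the paraventricular and supraoptic nuclei, and Avp also by the SCN shell. Crh (corticotropin-releasing hormone) of the paraventricular nucleus drives the stress axis, and cortical interneurons make it too.

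The start regions of Vip, Avp and Prok2 are shown because they carry sequences tied to daily and activity-driven transcription. They are RefSeq sequences of build GRCm38.p6, 250 bases before to 50 after the annotated start, written 5′ to 3′. Capitals mark the E-box CACGTG, to which the clock factors CLOCK and BMAL1 bind, and TGACG, the half-site of the cyclic AMP response element TGACGTCA; both strands were searched.
Vip (chr10:5638968-5639267, plus strand): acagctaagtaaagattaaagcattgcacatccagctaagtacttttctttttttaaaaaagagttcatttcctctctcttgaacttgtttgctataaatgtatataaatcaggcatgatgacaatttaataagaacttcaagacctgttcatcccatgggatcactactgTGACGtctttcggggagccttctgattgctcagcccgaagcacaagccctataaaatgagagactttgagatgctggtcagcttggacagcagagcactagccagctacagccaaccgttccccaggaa
Avp (chr2:130582539-130582838, minus strand): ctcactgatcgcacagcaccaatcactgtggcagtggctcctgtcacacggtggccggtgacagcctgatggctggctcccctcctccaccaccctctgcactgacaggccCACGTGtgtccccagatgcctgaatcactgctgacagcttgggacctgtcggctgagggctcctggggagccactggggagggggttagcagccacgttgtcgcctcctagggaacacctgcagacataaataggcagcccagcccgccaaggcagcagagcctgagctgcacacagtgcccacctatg
Prok2 (chr6:99726343-99726642, minus strand): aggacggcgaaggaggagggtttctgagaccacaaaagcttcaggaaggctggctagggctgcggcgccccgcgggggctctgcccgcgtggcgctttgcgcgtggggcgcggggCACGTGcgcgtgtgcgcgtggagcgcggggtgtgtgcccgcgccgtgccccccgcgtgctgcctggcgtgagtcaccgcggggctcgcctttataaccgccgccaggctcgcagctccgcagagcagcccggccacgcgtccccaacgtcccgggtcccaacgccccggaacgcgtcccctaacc

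Avp and Prok2 each had 1 E-box, and Vip had 1 half-site. The windows of Vipr2, Oxt and Rgs16 held none of the 3 motifs, and the complete TGACGTCA was in none of the 6 windows. Of 32851 start regions of the same length, 7.15% held CACGTG, 20.8% held TGACG and 1.79% held TGACGTCA. These matches are letters in a window and not measured sites. On the genome, Avp (chr2:130580620-130582588) and Oxt (chr2:130574519-130577054) are neighbours, with 3565 bases between them. Vip lies at chr10:5639193-5647617, Prok2 at chr6:99711299-99726392, Rgs16 at chr1:153740353-153745468, Vipr2 at chr12:116077420-116148637 and Crh at chr3:19693401-19695396.

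The labels of the tissues were first set against genes that mark them, and these genes were chosen after values had been seen. In the hypothalamus arrays, Hcrt (orexin) averaged 12.4 and Pmch (melanin-concentrating hormone) 13.4 log2 units, against 4.98 and 4.91 in the cortex. The cortex arrays carried Slc17a7, the vesicular glutamate transporter of cortical and hippocampal pyramidal cells, at a median of 9.37. In the 12 arrays labelled hippocampus, Slc17a7 had a lowest value of 3.74, a median of 4.03 and a highest of 7.56, and Neurod6, a pyramidal cell factor, 2.68, 3.10 and 9.05. The highest value of both was on cKO replicate 1 at 8 weeks, and the next highest were 4.41 for Slc17a7 and 3.31 for Neurod6. In the same 12 arrays, Pax7, Tfap2b and Tcf7l2, factors used in the midbrain and thalamus, had medians of 8.23, 8.78 and 10.3, against 2.62, 3.89 and 4.79 in the cortex. These arrays are therefore named by their label, and their values are not read as those of the hippocampus. The regions were normalized separately, so levels are set side by side between regions without a test.

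Vip was the member with the largest difference between cKO and control mice among the 11 probe sets in the hypothalamus, and that difference was measured 8 weeks after treatment. At 8 weeks, the 3 cKO arrays had Vip levels of 7.62, 6.25 and 7.43 log2 units, against 8.62, 8.87 and 8.75 in the 3 control arrays. Every cKO array lay below every control array, and also below the 6 arrays of 4 weeks, whose lowest was 8.28. The mean was 7.10 ± 0.74 in cKO mice and 8.75 ± 0.13 in controls (SD, n = 3 each). The difference was -1.65 (SE 0.28, 95% confidence interval -2.25 to -1.04), which is 3.13-fold lower on the linear scale of the intensity. In limma it ranked 3 among 15000 genes (unadjusted p = 7.54e-05), with an adjusted p = 0.377, so it was not called at a false discovery rate (FDR) of 15%. The exact two-sided permutation test gave 0.1, the smallest p that 3 against 3 animals allow. In whole tissue, fewer Vip cells and less Vip RNA per cell cannot be told apart.

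None of the members was called in the hypothalamus, and limma called 0% of the 15000 genes at either time. At an unadjusted p under 0.05 there were 425 genes (2.83%) at 4 weeks and 1017 (6.78%) at 8 weeks; Vip and Prok2 were the members among them, at 8 weeks. At 8 weeks same-numbered arrays were taken as pairs because their values deviated together, although the labels name different animals and state no pairing. With this replicate block 2 genes were called in limma, Tspo and Ifitm3 (named after their values were seen), while Vip had an adjusted p = 0.284. The call for Vip turned on single arrays: limma gave an adjusted p = 0.0513 without cKO replicate 2 (difference -1.22) and 0.00583 without cKO replicate 3 (-1.81), over a range of 0.00583 to 0.866 in all 24 alternatives. With array weights it was 0.0375. Without cKO replicate 2, 1 of the 15000 genes was called, without cKO replicate 3 it was 511, and with array weights 564.

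**Figure D1:**
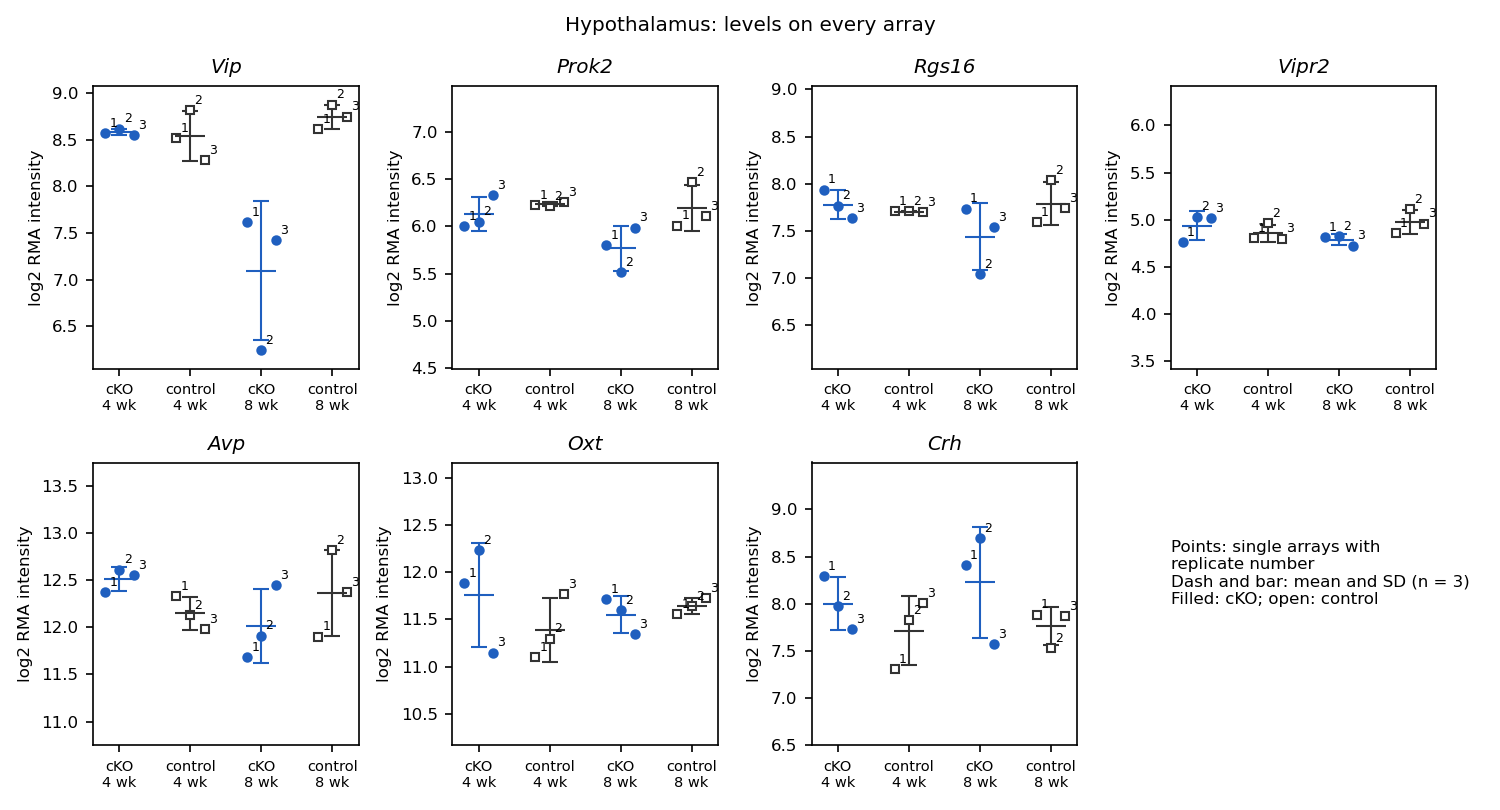
Level of each gene (log2 RMA intensity, y axis) on the 12 hypothalamus arrays, by treatment and weeks after it (x axis). Points are arrays with their replicate number, dashes and bars the mean and SD of 3 animals, and each panel has its own axis with a height of at least 3 log2 units; Vip at 8 weeks in cKO mice (6.25 to 7.62) lies apart from the other 9 arrays (8.28 to 8.87).

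At 4 weeks Vip was nearly level between the groups. It was 8.57, 8.62 and 8.55 in cKO arrays, against 8.52, 8.81 and 8.28 in control arrays. The cKO values lay within the control range, and the difference was 0.04 (95% confidence interval -0.56 to 0.65). The difference at 8 weeks minus that at 4 weeks was -1.69 (SE 0.39), which ranked 9 in limma, with an adjusted p = 0.999. With all arrays no gene passed for this term (673, or 4.49%, had an unadjusted p under 0.05). Without 8-week cKO replicate 3 the adjusted p of Vip was 0.0487 in limma, in a fit that called 319 of the 15000 genes. Within the cKO mice the Vip difference between 8 and 4 weeks was -1.48 (SE 0.28, rank 7, adjusted p = 0.209 in limma). The adjusted p was 0.0979 without 8-week cKO replicate 2, 0.0101 without replicate 3 and 0.123 with the replicate block. Of the 15000 genes, 523 were called without replicate 3 and 131 with the block. With all arrays and no block, 0.0133% of the genes were called, Tspo and Dlk1 (named after their values were seen), and 8.28% had an unadjusted p under 0.05. The replicate block tied same-numbered arrays of different animals at 4 and 8 weeks, a pairing that the labels do not give. Within the controls the Vip difference between 8 and 4 weeks was 0.21 (SE 0.28), and limma called 0% of the genes there (2.08% at an unadjusted p under 0.05).

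Prok2 and Rgs16, both strongly tied to the SCN in mice, had on their tested probe sets the lowest hypothalamic value on the array where Vip was lowest. Prok2 had levels of 5.80, 5.51 and 5.99 in cKO arrays at 8 weeks, against 6.01, 6.47 and 6.11 in control arrays. The groups did not overlap, although cKO replicate 3 and control replicate 1 nearly touched. The difference was -0.43 (SE 0.14, adjusted p = 0.493 in limma, and 0.114 without cKO replicate 3, where 511 of the 15000 genes were called). The other pair of Prok2 probe sets did not show it: their differences were -0.02 and 0.01, at hypothalamic levels between 2.76 and 3.95, below the lowest level tested. At 4 weeks Prok2 was 6.00, 6.05 and 6.33 in cKO arrays, against 6.23, 6.22 and 6.26 in control arrays, so the groups overlapped. The difference there was -0.11.

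Rgs16 had levels of 7.74, 7.04 and 7.54 in cKO arrays at 8 weeks, against 7.60, 8.04 and 7.74 in control arrays. Replicate 2 was the lowest of the cKO arrays and replicate 2 the highest of the controls, and the remaining arrays overlapped. The difference was -0.35 (SE 0.16, adjusted p = 0.738 in limma), and ran from -0.50 without cKO replicate 1 to -0.15 without cKO replicate 2. The second probe set of Rgs16 had the same lowest and highest arrays, with 8.42, 7.82 and 8.23 in cKO arrays and 8.24, 8.83 and 8.37 in control arrays (difference -0.32). The third differed by -0.09, so the 3 probe sets shared a sign at 8 weeks but not a size. At 4 weeks they had differences of 0.07, -0.07 and 0.10 in the same order, and the groups overlapped on each.

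Vipr2, the receptor of Vip, was near the floor of the arrays and was not among the 15000 genes tested in the hypothalamus. Its levels at 8 weeks were 4.82, 4.82 and 4.72 in cKO arrays, against 4.86, 5.11 and 4.96 in control arrays. The groups did not overlap, but the gap between the nearest arrays was small and the difference was -0.19 (SE 0.09, adjusted p = 0.854 in limma over all annotated probe sets). At 4 weeks Vipr2 was 4.76, 5.03 and 5.02 in cKO arrays and 4.80, 4.96 and 4.80 in control arrays, with overlap. At 8 weeks the cKO arrays lay below all controls for 2 of the 6 tested members, Vip and Prok2, and also for the untested Vipr2. Of the 15000 genes, 12.5% did not overlap in that comparison, and in 6.3% the cKO arrays were the lower ones.

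**Figure D2:**
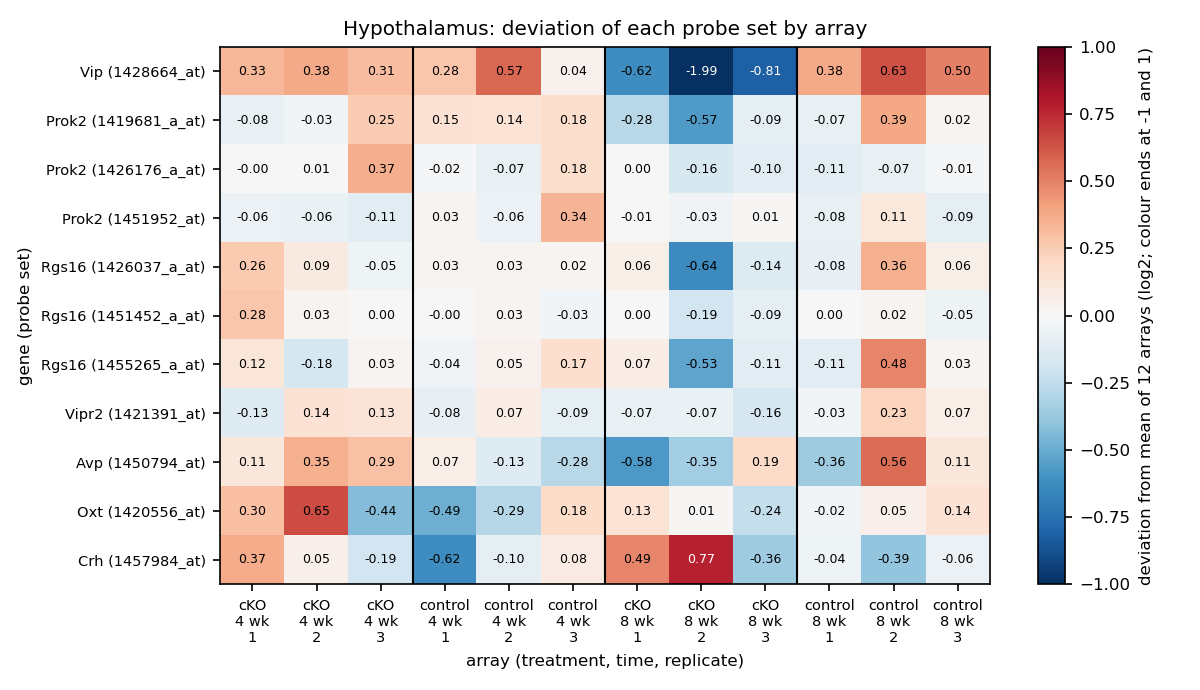
Deviation of each of the 11 probe sets (rows) from its mean over the 12 hypothalamus arrays (columns, by treatment, weeks and replicate), in log2 units, with colours that end at -1 and 1. The 8-week cKO replicate 2 is at -1.99 for Vip, -0.57 for Prok2 and -0.64 for Rgs16, while Crh on the same array is at 0.77.

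Avp and Oxt, neighbours on chromosome 2, were at high levels on all hypothalamus arrays, and neither was called between the groups. At 4 weeks Avp was 12.37, 12.61 and 12.55 in cKO arrays, against 12.33, 12.13 and 11.99 in control arrays. All cKO arrays were above all controls, by 0.36 in the mean (SE 0.22, adjusted p = 0.998 in limma). Of the 15000 genes, 6.75% did not overlap at 4 weeks, and in 2.79% the cKO arrays were the higher ones. At 8 weeks Avp was 11.68, 11.91 and 12.45 in cKO arrays, against 11.90, 12.82 and 12.37 in control arrays. The groups overlapped, and the difference was -0.35 (SE 0.22), with a range of -0.58 to -0.12 when 1 array was left out. Its change in the difference between the times was -0.71 (SE 0.32, unadjusted p = 0.0445, adjusted p = 0.999 in limma). Within the cKO mice Avp differed by -0.50 between 8 and 4 weeks (unadjusted p = 0.0468, adjusted p = 0.591 in limma). In that contrast the tested probe sets of Prok2, Rgs16, Oxt and Crh differed by -0.36, -0.34, -0.21 and 0.23, and none was called. Of the 15000 genes, 8.28% had an unadjusted p under 0.05 there.

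Oxt was 11.89, 12.24 and 11.15 in cKO arrays at 4 weeks, against 11.10, 11.30 and 11.77 in control arrays. Replicates 1 and 2 of the cKO arrays were above all controls and replicate 3 was among them. The difference was 0.37 (SE 0.24), and between 0.13 and 0.68 with 1 array left out. At 8 weeks Oxt was 11.72, 11.60 and 11.34 in cKO arrays, against 11.56, 11.64 and 11.73 in control arrays. The difference of -0.09 (95% confidence interval -0.61 to 0.43) was within the spread of the animals.

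Crh was the tested member whose mean was higher in cKO mice at 8 weeks. Its levels were 8.41, 8.70 and 7.57 in cKO arrays, against 7.88, 7.53 and 7.87 in control arrays. The first and second cKO arrays were above the controls and the third was among them. The difference was 0.46 (SE 0.27, adjusted p = 0.873 in limma). Without cKO replicate 3 it was 0.79 with an adjusted p = 0.111, in a fit that called 511 of the 15000 genes. With 1 array left out it ran from 0.23 to 0.79. At 4 weeks Crh was 8.29, 7.97 and 7.73 in cKO arrays, against 7.30, 7.83 and 8.00 in control arrays, with a difference of 0.29 (0.083 to 0.43 with 1 array left out) and overlap.

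The members did not vary as a block over the 12 hypothalamus arrays. The likeness of patterns was measured by Pearson's r over these arrays, which share 1 normalization and the 4 groups, and is given without a test. Vip had r = 0.83 with Rgs16 and 0.83 with Prok2, and after the group means were taken out r was 0.82 and 0.56. With Crh, Vip had r = -0.60, with Avp 0.48 and with Oxt 0.04. Prok2 had r = 0.71 with Rgs16, 0.62 with Avp and -0.79 with Crh. After the group means were taken out these were 0.56, 0.68 and -0.73, so Prok2 was then more like Avp than like Vip or Rgs16. Avp and Crh had r = -0.60, and -0.74 after the group means were taken out. Among the 15000 genes, those most like Vip were Herc3 (0.89), a probe set of Gm28042 and Jmjd7 (0.83), Rgs16, Prok2 and Asap2 (0.82). The difference of Herc3 at 8 weeks was -0.18 and that of Asap2 -0.08, so they followed the order of Vip at a smaller scale. The genes most like Prok2 were Mtnr1a (0.86), a melatonin receptor, Six6 (0.86), a homeobox factor needed for the SCN to form, and Gstp3 (0.85). Those most like Rgs16 were Zfp853 (0.87), Pkd2l1 (0.87) and Lpcat4 (0.84).

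The peptides of the other nuclei had other companions. Avp was most like Tnfaip8l1 (0.89), Ptprn (0.87), a protein of dense-core vesicles, and Jph2 (0.87). Oxt was most like Zic4 (0.89), Trh (0.87), thyrotropin-releasing hormone, and Ccdc114 (0.84). Crh was most like Meis2 (0.91), a homeobox factor, G630016G05Rik (0.87) and Ucn3 (0.87), a peptide of the Crh family.

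Lists of genes of the hypothalamic nuclei and of the pathways around the members showed mostly small differences at 8 weeks, and limma called none of their genes. Of 9 SCN genes besides the members, 8 were tested, 1 with a higher and 7 with a lower mean in cKO mice (median difference -0.23, against -0.0030 over all genes). Six6 was 6.50, 6.67 and 7.46 in cKO arrays, against 7.40, 8.00 and 7.44 in control arrays. The first and second cKO arrays were below all controls and the third among them, with a difference of -0.73 (adjusted p = 0.420 in limma). Prokr2, the receptor of Prok2, differed by -0.41 and C1ql3, a synaptic protein, by -0.25. Per array, the median deviation of this list was -0.24, -0.15 and -0.07 in cKO mice and -0.08, 0.21 and 0.07 in controls, so the groups overlapped. Vip differed more than any gene of this list.

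Of 16 ligands and receptors related to the members, 11 were tested, 4 higher and 7 lower (median -0.08), with Ucn, a ligand of the Crh receptors, at -0.57 and Crhbp, the Crh binding protein, at -0.23. Of 13 genes of peptide processing and dense-core vesicles, 11 were tested, 2 higher and 9 lower (median -0.12). Among these, Cadps2, which primes such vesicles for release, differed by -0.22 and Vgf, a granule protein, by -0.15, and for both the groups did not overlap. Of 17 other Rgs genes, 15 were tested, 7 higher and 8 lower (median -0.04), with Rgs10 at 0.24 and Rgs12 at 0.17. Clock genes were balanced, with 9 higher and 6 lower of 15 (median 0.02). No tested gene of these pathway lists differed by as much as Vip.

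Genes of other nuclei were measured because Vip neurons fill a small part of the hypothalamus and the tissue was dissected by hand. Of 9 genes of the paraventricular and supraoptic nuclei, 1 was higher and 8 lower (median -0.10), with Otp at -0.26 and Sim1 at -0.25, factors these neurons need to form. Of 7 tested genes of the arcuate nucleus, 1 was higher and 6 lower (median -0.29), with Npy at -0.52 and Tbx3 at -0.55. All 5 genes of the ventromedial nucleus had a lower mean (median -0.11), with Adcyap1 at -0.33. All 5 of the lateral and dorsomedial hypothalamus did too (median -0.22), with Hcrt at -0.64 and Npvf at -0.39. Hcrt was 12.30, 12.34 and 11.31 in cKO arrays, against 12.56, 12.52 and 12.80 in control arrays, so its low array was replicate 3 and not replicate 2, the low array of Vip. Of 6 preoptic and anterior genes, 2 were higher and 4 lower (median -0.17), and of 3 posterior and mammillary genes 2 were higher and 1 lower. Of 12 genes of GABAergic interneurons, 2 were higher and 10 lower (median -0.16). The pan-neuronal list had 3 higher and 5 lower of 8 (median -0.03). At 4 weeks, when Vip was nearly level, the lateral and dorsomedial list had 0 higher and 5 lower (median -0.16). The arcuate list then had 1 higher and 6 lower (median -0.14), and the ventromedial list 1 and 4 (median -0.10). The paraventricular and supraoptic list had 4 and 5 (median -0.0047). The preoptic list had 3 and 3, the posterior and mammillary list 3 and 0, and the GABAergic list 6 and 6.

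Genes of tissue next to the hypothalamus were followed on the same arrays. Of 7 tested thalamus genes, 5 were higher and 2 lower (median 0.09), and their median deviation was 0.39, -0.16 and -0.08 in cKO arrays, against -0.0046, -0.20 and -0.02 in control arrays. The highest was replicate 1, which had the highest Vip of the 3 cKO arrays. Of 6 tested genes of the striatum and septum, 4 were higher and 2 lower (median 0.11), and their median deviation was -0.16, 0.36 and 0.11 in cKO arrays, against -0.03, 0.0040 and -0.08 in control arrays. Here the highest was replicate 2, where Vip was lowest. Of 7 genes of tanycytes and the median eminence 3 were higher and 4 lower (median -0.12), of 6 pituitary genes 2 and 4 (median -0.11), of 6 choroid plexus genes 4 and 2 (median 0.20) and of 2 cortical excitatory genes 0 and 2 (median -0.06). At 4 weeks all 7 tested thalamus genes had a higher mean in cKO mice (median 0.26), and the striatum and septum list had 3 higher and 3 lower. The part of these tissues in the difference of Vip was not tested.

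The microglia list had a larger median difference than any list of the nuclei. In size, the astrocyte median was close to the largest of the nuclei, -0.29 in the arcuate list, and the oligodendrocyte median was smaller. All 13 tested microglia genes had a higher mean in cKO mice (median 1.33), and all 7 astrocyte genes did (median 0.28), with Gfap at 1.38, whereas 1 of 9 oligodendrocyte genes was higher and 8 lower (median -0.15). None was called by limma. The microglial median deviation was 1.80, 1.31 and -0.19 in cKO arrays, against -0.16, -0.49 and -0.32 in control arrays. Gfap was 11.07, 10.23 and 9.25 in cKO arrays, against 8.98, 8.37 and 9.05 in control arrays. The astrocyte median deviation was 0.35, 0.19 and 0.04 in cKO arrays, against -0.07, -0.17 and -0.05 in control arrays, so these groups did not overlap. On cKO replicate 3 the microglial median lay within the control range, while C1qa, a complement gene of microglia, was at 10.15, against at most 9.99 in control arrays. The part of glia in the difference of Vip was not tested. The signal of the actin control probe sets, 3′ minus 5′ end, was 1.18, 1.24 and 1.20 in cKO arrays, against 1.32, 1.59 and 1.46 in control arrays. For Gapdh it was 0.023, 0.027 and -0.0012, against 0.056, 0.24 and 0.11. Signs of RNA quality thus also separated the groups. Control replicate 2, the highest on both, was also the highest hypothalamus array for Vip, Vipr2, Avp and the tested Prok2 and Rgs16 probe sets, but not for Oxt or Crh. The part of RNA quality in the result was not tested.

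**Figure D3:**
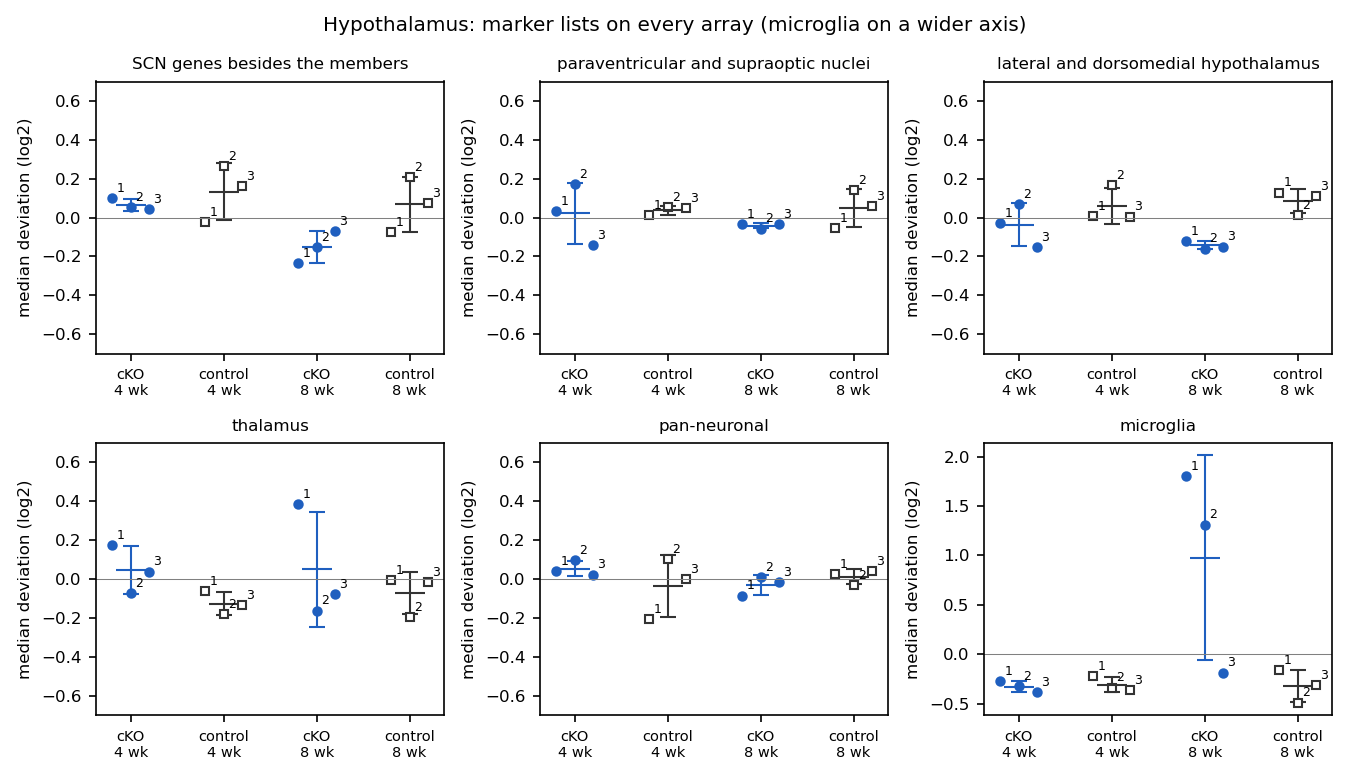
Median deviation of 6 marker lists (y axis, log2, from the mean of the 12 hypothalamus arrays) on each array, by treatment and weeks (x axis), with the mean and SD of 3 arrays. The microglia panel has a wider axis, where cKO replicates 1 and 2 at 8 weeks stand at 1.80 and 1.31 and replicate 3 at -0.19; the 5 other lists stay between -0.7 and 0.7.

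In the cortex, where interneurons make Vip, its level did not follow that of the hypothalamus. At 8 weeks Vip was 9.64, 9.46 and 9.43 in cKO arrays, against 9.59, 9.63 and 9.46 in control arrays. The groups overlapped, with a difference of -0.05 (95% confidence interval -0.37 to 0.27). At 4 weeks it was 9.52, 9.55 and 9.11 in cKO arrays, against 9.49, 9.36 and 9.03 in control arrays, with a difference of 0.10. The difference in the hypothalamus minus that in the cortex at 8 weeks was -1.60 for Vip (SE 0.31, 95% confidence interval -2.24 to -0.96), rank 1 of 14489 genes in limma, with an unadjusted p = 3.98e-05 and an adjusted p = 0.547. Without cKO replicate 1 the adjusted p was 0.106, with 2 genes called, and without cKO replicate 3 it was 0.00563, with 266 called. With all arrays no gene was called in that comparison (0%, and 921, or 6.36%, at an unadjusted p under 0.05). For Crh it was 0.97 (unadjusted p = 0.0284) and for Avp -0.58 (unadjusted p = 0.0424), with adjusted p of 0.765 and 0.773.

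**Figure D4:**
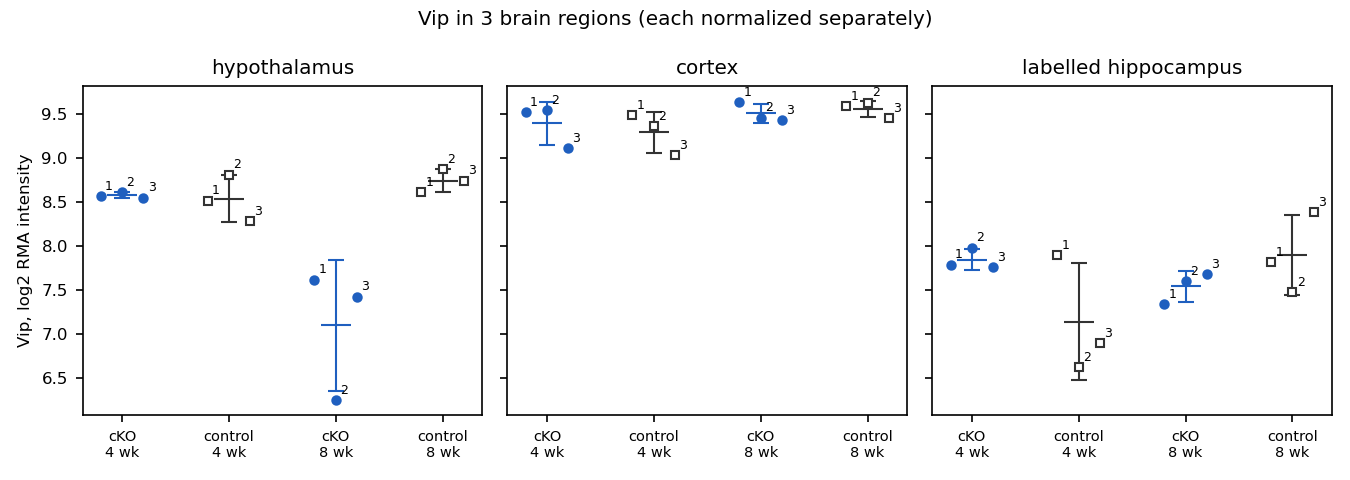
Vip level (log2 RMA intensity, y axis) on every array of the 3 regions, by treatment and weeks (x axis), with the mean and SD of 3 animals. Regions were normalized separately; the 8-week gap between cKO and control arrays in the hypothalamus is not seen in the cortex, where all 12 arrays lie between 9.03 and 9.64.

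Crh and Avp gave the largest cortical differences of the members, at 4 weeks, when 5.12% of the 15000 genes were called in the cortex (768, of which none was a member; 22.4% had an unadjusted p under 0.05). The median of all genes was shifted by 0.11 in that comparison, and leaving out 1 array gave between 0 and 6814 calls. Crh was 6.75, 5.86 and 6.16 in cKO arrays, against 7.35, 7.37 and 6.64 in control arrays. Replicate 1 of the cKO arrays lay above the lowest control, and the difference was -0.86 (SE 0.31, adjusted p = 0.169 in limma). At 8 weeks it was 7.90, 6.62 and 7.32 in cKO arrays, against 7.71, 7.78 and 7.85 in control arrays, with overlap and a difference of -0.50. Avp was 5.71, 5.31 and 5.03 in cKO arrays at 4 weeks, against 5.05, 4.88 and 4.75 in control arrays, levels far below those in the hypothalamus. The groups overlapped by a narrow margin. The difference was 0.46 (SE 0.16, adjusted p = 0.160 in limma). Each was past the threshold in 4 of the alternatives, without 4-week cKO replicate 3 and without 4-week control replicate 3 among them. Of the 15000 genes, 4241 and 6814 were called in those fits, in that order. Both members also passed with array weights, where 9764 genes were called.

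The other members in the cortex were not called on their tested probe sets. Rgs16 differed by 0.29 at 4 weeks (adjusted p = 0.243 in limma) and -0.10 at 8 weeks on the tested probe set. On the third probe set it was 5.47, 5.43 and 5.33 in cKO arrays at 4 weeks, against 5.08, 5.09 and 4.94 in control arrays. Its difference of 0.37 had an adjusted p = 0.139 in limma over all annotated probe sets. That is past the threshold, but the share called in that fit is not given here, and the tested probe set was not called. In the main fit of the cortex at 4 weeks, 5.12% of the 15000 genes were called. There 19.1% did not overlap, and in 16.1% the cKO arrays were the higher ones. Oxt was 7.28, 7.30 and 7.28 in cKO arrays at 4 weeks, against 7.08, 7.08 and 7.24 in control arrays, without overlap and with a difference of 0.15, and it differed by 0.14 with overlap at 8 weeks. At 8 weeks Avp was 5.08, 4.88 and 5.10 in cKO arrays, against 4.77, 4.75 and 4.85 in control arrays. These did not overlap, as in 17.2% of the 15000 genes (9.92% with the cKO arrays higher), and the difference was 0.23 (adjusted p = 0.874 in limma, which called 0% of the genes then and gave 704, or 4.69%, an unadjusted p under 0.05). Vipr2 lay between 3.90 and 4.58 over the 12 arrays, near the lowest level tested, with differences of 0.04 and 0.03 at 4 and 8 weeks. Prok2 lay below that level. Its main probe set ranged from 3.18 to 3.23 in cKO arrays at 4 weeks and from 2.99 to 3.10 in control arrays, without overlap (difference 0.15, adjusted p = 0.491 in limma over all annotated probe sets), and differed by -0.05 at 8 weeks. The other Prok2 probe sets differed by 0.08 and 0.09 at 4 weeks and by -0.15 and 0.12 at 8 weeks, with overlap. The second Rgs16 probe set differed by 0.21 and -0.13 at 4 and 8 weeks and the third by 0.16 at 8 weeks, with overlap.

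In the arrays labelled hippocampus, no gene was called at 4 weeks (0%, and 945, or 6.3%, at an unadjusted p under 0.05) or 8 weeks (0%, and 892, or 5.95%) in limma. Vip was 7.79, 7.98 and 7.76 in cKO arrays at 4 weeks, against 7.89, 6.63 and 6.90 in control arrays, with overlap. The difference was 0.71 (unadjusted p = 0.0302, adjusted p = 0.785 in limma). At 8 weeks it was 7.34, 7.60 and 7.68 in cKO arrays, against 7.82, 7.48 and 8.38 in control arrays, a difference of -0.35. The order of the groups thus turned between the times, with overlap at both. Crh was 4.53, 5.06 and 5.27 in cKO arrays at 4 weeks, against 4.70, 4.67 and 3.25 in control arrays, with the last array far below the others and a difference of 0.75 (SE 0.34, and 0.27 to 1.00 with 1 array left out). At 8 weeks its difference was -0.36. Rgs16 differed by -0.58 (SE 0.33) at 8 weeks on the tested probe set, with overlap. Its lowest array was cKO replicate 1 at 5.44, the array with the high Slc17a7 and Neurod6, and without it the difference was -0.16 (range -0.92 to -0.16 with 1 array left out). On the second probe set it was 6.41, 6.52 and 6.79 in cKO arrays and 6.85, 7.19 and 7.15 in control arrays, which did not overlap (difference -0.49, adjusted p = 0.817 in limma over all annotated probe sets, while 14.3% of the 15000 genes did not overlap, 8.65% with the cKO arrays lower). The second probe set differed by 0.05 at 4 weeks, and the third by -0.0067 at 4 weeks and -0.19 at 8 weeks, with overlap. Vipr2 differed by 0.01 and 0.06 at 4 and 8 weeks, and Prok2 by -0.14 and 0.04 on its main probe set, by 0.03 and 0.01 on the second and by 0.11 and -0.11 on the third, all with overlap. Avp differed by 0.03 and -0.20 and Oxt by 0.12 (no overlap, as in 10.1% of the 15000 genes, 5.17% with the cKO arrays higher) and -0.0033 at 4 and 8 weeks.

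**Figure D5:**
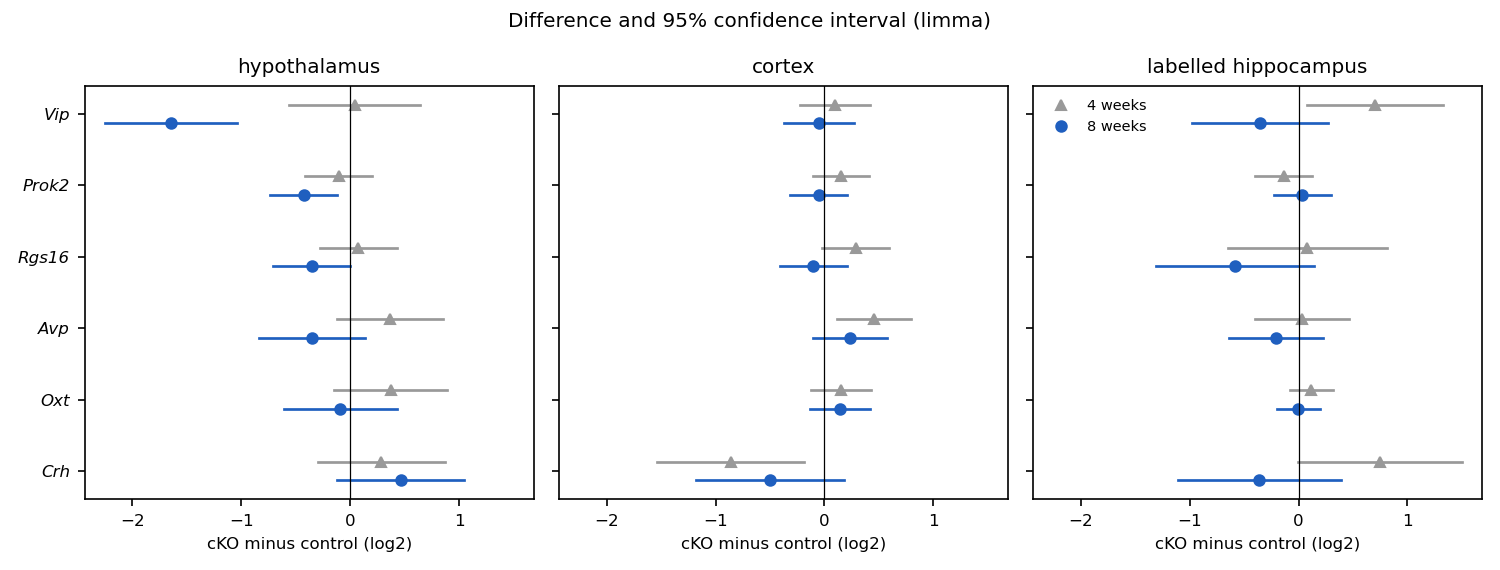
cKO minus control difference (x axis, log2) of 6 genes (y axis) in the 3 regions, at 4 weeks (grey triangles) and 8 weeks (blue circles), with the 95% confidence interval of limma; Prok2 in the cortex and in the arrays labelled hippocampus is from the fit of all annotated probe sets. In the hypothalamus the interval of Vip at 8 weeks, -2.25 to -1.04, lies to the left of 0, and so does that of Prok2. At 4 weeks, those of Crh (-1.54 to -0.18) and Avp (0.12 to 0.79) in the cortex also leave out 0. So does that of Vip in the arrays labelled hippocampus at 4 weeks (0.08 to 1.33). The intervals are not adjusted for the number of genes.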

How the data were processed

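Total RNA was amplified and hybridised to 36 Affymetrix mouse arrays. The deposited values are log2 intensities that the authors computed with RMA in Affymetrix Expression Console, for each tissue separately (the sources used here give no version of it). RMA brings arrays of 1 tissue towards a shared distribution, which can hide overall shifts. The deposited values did not fully share one, as the medians of all probe sets on the cortex arrays ran from 5.25 to 5.39. Of 45101 probe sets, 34958 had a single annotated gene, while 932 had several and 9211 had none. In each tissue, annotated probe sets were ordered by the level that 3 of its 12 arrays reached, and kept from the top until they held 15000 genes (log2 floors 5.11 in the hypothalamus, 4.18 in the cortex and 4.45 in the arrays labelled hippocampus), with the highest-variance probe set of each gene. Of the 7 members, 6 passed in the hypothalamus (not Vipr2) and 6 in each other region (not Prok2). limma 3.58.1 (statmod 1.5.0, R 4.3.3) fitted the 4 groups of a tissue, with Benjamini-Hochberg adjustment over all genes tested and calls at an FDR of 15%, and was tested on simulated data. Hypothalamus and cortex differences were compared in 1 fit of 24 arrays with the animal as a random block. The number of arrays limits the precision, and the spread is that between 3 animals. Same-numbered cKO and control arrays of the hypothalamus at 8 weeks deviated together (r = 0.21, 0.27 and 0.28). This was taken as pairing, although the labels do not state it. At 4 weeks r was 0.11, -0.03 and 0.23, which was not taken as pairing. The replicate block was still fitted over all 12 arrays of a tissue, so it also joined arrays of different times. Named were all members on every probe set, up to 3 genes of a list with the lowest unadjusted p at 8 weeks, and the genes most like a member (5 for Vip, 3 for each other member). Members and lists were chosen with earlier results of these data known. Sequences are from RefSeq, GRCm38.p6, where 6 of the 7 members matched; figures were drawn with matplotlib 3.10.9 in Python 3.11.15.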

Additional observations from a re-analysis of the deposited data

How the results depend on the processing

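All 24 alternatives kept Vip below control in the hypothalamus at 8 weeks. Leaving out 1 array could not have changed this sign, because every cKO array lay below every control array. Its difference ran between -1.91 and -1.22 when 1 array was left out, and it was past the threshold with array weights (-1.90, adjusted p = 0.0375 in limma) and without 8-week cKO replicate 2 or 3. Counts of called genes were less stable. In the hypothalamus at 8 weeks, 0 genes became 2 with the 10000-gene filter, 3 with every annotated probe set, 1 with arrays centred, 2 with trend and robust eBayes, 564 with array weights, 2 with the replicate block and 0 to 511 with 1 array left out (511 without cKO replicate 3). For 8 against 4 weeks in cKO mice, 2 genes became 4 with every probe set, 0 with the probe set of highest mean, 409 with array weights, 1 at an FDR of 5%, 131 with the block and 1 to 523 with 1 array left out. Array weights called 1 gene between the times in controls, and leaving out 1 array gave 0 to 319 genes for time by treatment. Vip between 8 and 4 weeks in cKO mice was -1.76 with array weights, -1.48 with the block and -1.74 to -1.06 with 1 array left out, and its difference of differences -1.95 to -1.26. In the cortex at 4 weeks, 768 genes became 443 with the 10000-gene filter, 1296 with the highest mean, 96 centred, 117 quantile-normalized, 0 with the 6 arrays alone, 1 with the methods' t-test, 9764 with array weights, 2 at an FDR of 5%, 3 with the block and 0 to 6814 with 1 array left out. At 8 weeks the cortex gave 82 with array weights and 0 to 1 with 1 array left out. The arrays labelled hippocampus gave 3 at 8 weeks with array weights and 0 to 2 at 4 weeks with 1 array left out. The difference between hypothalamus and cortex gave 0 to 266 genes with 1 array left out, and -1.80 to -1.20 for Vip.

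Small differences changed sign. Rgs16 in the hypothalamus at 4 weeks was -0.068 with the probe set of highest mean and -0.0040 to 0.15 with 1 array left out. With 1 array left out, the ranges were -0.085 to 0.18 for Vip at 4 weeks and -0.17 to 0.015 for Oxt at 8 weeks in the hypothalamus, and -0.031 to 0.24 for Vip in the cortex at 4 weeks. In the arrays labelled hippocampus they were -0.11 to 0.21 for Avp and -0.18 to 0.34 for Rgs16 at 4 weeks, and -0.37 to 0.0062 for Avp and -0.076 to 0.079 for Oxt at 8 weeks, with Oxt at 0.025 with array weights. The causes were not tested. The replicate block in the hypothalamus changed no call of a member between cKO and control. Prok2 in the hypothalamus at 8 weeks also passed with array weights (adjusted p = 0.0922 in limma), where 564 genes were called. Rgs16 in the cortex at 4 weeks passed with array weights, where 9764 of the 15000 genes were called. It also passed without 4-week cKO replicate 3 (4241 genes called) and without 4-week control replicate 3 (6814 genes called). Vipr2 lay below the 5.11 floor of the hypothalamus, and 3 animals a group limit all of these values.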
